A study of Mus musculus with 7 samples.

Results

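Perinatal ovarian cells that carried transcripts of both Pax8 and Wnt6 were examined. Pax8 (ENSMUSG00000026976, chr2:24420560-24475599) encodes a paired-box transcription factor of kidney, thyroid and reproductive tract tubules. Wnt6 (ENSMUSG00000033227, chr1:74771892-74785322) encodes a secreted signal of pregranulosa cells. The cells were selected in the E18.5, P1 and P5 libraries by at least 1 unique molecular identifier (UMI) of Pax8 and of Wnt6, together with at least 1000 detected genes, at most 1 Upk3b UMI, at most 5 UMIs of Col1a1 plus Col1a2 and at most 1 UMI of Dazl plus Ddx4. The last gates keep out surface epithelial, mesenchymal and germ cells. Of the E18.5 cells 35 met all of them, of the P1 cells 51 and of the P5 cells 26, together 112 of the 17046 cells in these libraries and of the 52542 in the series. They are called Pax8-positive cells below. The comparison cells passed the same gates with at least 1 Wnt6 UMI and no Pax8 UMI, and numbered 1355, 1315 and 1688, 4358 in all. Because both classes were defined by Pax8, Wnt6 and the gate genes, the levels of those genes are given as descriptions and were not tested.

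Each library came from pooled ovaries of untreated wild-type C57BL/6J mice, taken before birth at E18.5 (in days of embryonic age) or at postnatal day 1 or 5. The E18.5 tissue was digested in trypsin for 60 min and the P1 and P5 tissue for 80 min. There was 1 library per age, so age, library and pool cannot be told apart, and E18.5 also differs from the others in digestion time. The E18.5, P1 and P5 libraries held 4118, 6409 and 6519 cells and 32566406, 52076402 and 48790024 UMIs. The Pax8-positive cells had medians of 8896, 8573 and 10374.5 UMIs per cell, above those of the Pax8-zero cells at 7331, 8041 and 8118.5. Mitochondrial genes took 6.43, 7.01 and 5.41% of the UMIs of Pax8-positive cells and 8.43, 9.72 and 6.62% of those of Pax8-zero cells. Cell barcodes were shared by 35 cells of E18.5 and P1, 51 of E18.5 and P5 and 53 of P1 and P5, and 1 Pax8-positive cell at P5 had a barcode that was also in the E18.5 library. Levels are UMIs of a gene per 1000000 UMIs of the class (CPM), and ranges in parentheses after them are 95% Poisson intervals (exact), which cover counting error only. Values given together are given in the order E18.5, P1 and P5.

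The rete ovarii is a network of epithelial cords and tubules that joins the hilum of the ovary to the mesonephric tubules, and Pax8 marks its cells. Its cords lie next to the gonadal supporting lineage, whose pregranulosa cells carry Foxl2 (ENSMUSG00000050397, chr9:98955288-98958543), a transcription factor that maintains granulosa identity. Pregranulosa cells of the ovarian medulla and cortex have been followed as separate pathways, the latter marked by Lgr5 and Gng13. A cell with both tubule and gonadal transcripts can therefore be set against the markers of each.

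The selection rested on few Pax8 molecules per cell. Exactly 1 Pax8 UMI was carried by 24, 29 and 13 of the Pax8-positive cells and 2 or more by 11, 22 and 13, to a highest count of 3, 8 and 6. The Pax8 levels were 129.8 (96.0 to 172), 211 (172 to 255) and 189 (143 to 246) CPM. The Wnt6 levels were 461, 310.0 and 206 CPM, against 457, 426 and 353 CPM in Pax8-zero cells, and 7, 16 and 9 of the selected cells had exactly 1 Wnt6 UMI. Of cells that met every other gate with both genes, 2, 7 and 4 were just outside through 2 or more Upk3b UMIs, 0, 5 and 2 through collagen and 1, 0 and 0 through germ cell UMIs. Inside, 0, 1 and 1 cells had exactly 1 Upk3b UMI. No cell with at least 200 but fewer than 1000 genes met the other gates.

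Pax8 UMIs were not restricted to Wnt6-positive cells. Among Wnt6-positive cells that passed the gates, 2.52, 3.73 and 1.52% carried Pax8, at median depths of 7342, 8080 and 8128 UMIs. The share was 2.16, 2.72 and 3.06% in Wnt6-zero cells that passed the same gates and 1.92, 6.72 and 5.15% in Upk3b-rich cells, whose median depths were 6756, 7885 and 6848 and 10394, 13366 and 15177 UMIs. In collagen-rich cells, a mesenchymal type that should lack the gene, it was 0.226, 0.971 and 0.161% at 6560.5, 6933 and 5797 UMIs. Thinned to 2000 UMIs per cell, the Wnt6-positive and the collagen-rich shares were 0.722, 1.54 and 0.700% and 0, 0.324 and 0.0403%, and the Wnt6-zero share was 1.09, 0.935 and 1.06%. The thinned Upk3b-rich share was 0.962, 2.24 and 1.03%. It was above the Wnt6-positive share in each library, while before thinning it was below it at E18.5. The Wnt6-positive share lay above that of the collagen-rich cells in each library. It was below that of the Wnt6-zero cells at P5 at both depths and at E18.5 after thinning, and a zero count at these depths does not show that a cell lacks Pax8.

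The Pax8-positive cells carried transcripts of the gonadal supporting lineage. Foxl2 was at 154 (117 to 199), 175 (140.3 to 215) and 261 (206 to 327) CPM, against 128, 290.5 and 372 CPM. The Foxl2 level was the higher of the classes at E18.5 and the lower at P1 and P5, and its difference over the libraries did not pass the test (log2 fold -0.48 ± 0.18, adjusted p = 0.137). At least 1 Foxl2 UMI was found in 23, 36 and 20 Pax8-positive cells, or 65.7, 70.6 and 76.9%, and in 46.5, 74.1 and 87.8% of Pax8-zero and 24.8, 31.9 and 53.7% of collagen-rich cells. Wt1, a zinc finger factor of gonad and kidney, was at 424, 475 and 492 CPM in Pax8-positive cells and 302, 415 and 395 CPM in Pax8-zero cells. Wt1 did not pass the test, and nor did Gata4, Gata6, Runx1 and Nr5a1, further transcription factors of the lineage.

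Transcripts of mesonephric tubules differed from gene to gene. Lhx1, which encodes a transcription factor of nephric duct and tubules, had no UMI in any Pax8-positive cell, which allows levels of up to 9.77, 7.33 and 12.7 CPM. The same limits hold for every gene below that had no UMI in Pax8-positive cells. Pax2, the close relative of Pax8, had 1, 1 and 0 UMIs. Cdh1, the cadherin of epithelia, had 0, 4 and 3 UMIs, a level of 0, 7.95 and 10.3 CPM against 0.270, 0.176 and 0.132 CPM in Pax8-zero cells, and was too low to be tested. All its UMIs were in cells with 2 or more Pax8 UMIs, at 0, 15.9 and 17.6 CPM. Emx2, a homeobox gene of the urogenital epithelium, was at 71.5, 71.5 and 79.1 CPM against 85.9, 114 and 88.8 CPM in Pax8-zero cells (adjusted p = 0.118). Epcam, an epithelial adhesion molecule, was at 13.2, 43.7 and 55.0 CPM against 46.4, 73.1 and 33.9 CPM (adjusted p = 0.283). Cdh16 and Cldn3 were called higher. Cdh16, a cadherin of kidney and thyroid epithelium, was at 18.54, 25.8 and 31.0 CPM against 0.630, 1.14 and 0 CPM (log2 fold 5.38 ± 0.75, adjusted p = 1.65e-04). Cldn3, a claudin of tight junctions, was at 0, 37.8 and 37.8 CPM against 0.630, 1.41 and 5.60 CPM (log2 fold 3.30 ± 0.59, adjusted p = 0.00181). Single cells held 4 of 7 Cdh16 UMIs at E18.5, 5 of 9 at P5 and 8 of 19 Cldn3 UMIs at P1. In cells with 2 or more Pax8 UMIs Cdh16 was at 0, 47.7 and 52.8 CPM and Cldn3 at 0, 75.5 and 58.7 CPM. In cells with exactly 1 they were at 29.5, 3.97 and 0 CPM and at 0, 0 and 8.32 CPM. Of the 14 tubular genes listed, 9 were tested, with 2 higher and 1 lower and a median log2 fold of -0.51. Over all genes tested in this comparison, the background for the lists below too, 3.37% were called higher and 2.74% lower. At an unadjusted p under 0.05, of the tubular genes 2 were higher and 4 lower, and among cells of 5000 to 15000 UMIs 2 were called higher and 5 lower. The median over all genes tested, here and for the lists below, was -0.07. Of the tubule markers other than Pax8, by which the cells were chosen, Cdh16 and Cldn3 were thus called higher in the class sums. Krt18 was called lower and Pax2 and Lhx1 were at or near 0. The cells are called here by their gates.

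Over the 3 libraries, 420 of 12448 genes tested were higher in Pax8-positive than in Pax8-zero cells (3.37%) and 341 were lower (2.74%), at an adjusted p under 0.05 by edgeR's quasi-likelihood test with Benjamini-Hochberg adjustment on UMIs summed over each class in each library. The same test gives every adjusted p below, and SEs are those of the fit over 3 libraries. The direction was the same in each library for 415 of the higher and 329 of the lower genes. The median log2 fold of all genes tested was -0.07. With library sizes alone in place of TMM factors the median was 0.05 and the calls were 515 higher and 240 lower, a higher share of 68.2% against 55.2%. DESeq2 called 354 higher and 153 lower. The Pax8-positive sums held 26 to 51 cells each, so a few cells could carry a gene. For example, 1 cell held 11 of 24 Tgfb2 UMIs and 27 of 67 Gng13 UMIs at E18.5 and 11 of 19 Fst UMIs at P5.

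The 12 genes with the largest excess were taken from the called genes that had the same sign in each library, so that sign is part of the choice, and a mean of at least 50 CPM over the libraries in Pax8-positive cells. Tgfb2 (ENSMUSG00000039239, chr1:186622792-186705989), a secreted transforming growth factor, was at 63.6 (40.7 to 94.6), 171 (137 to 211) and 282 (224 to 350.2) CPM in Pax8-positive cells and at 12.4, 16.52 and 17.7 CPM in Pax8-zero cells (log2 fold 3.22 ± 0.24, adjusted p = 3.93e-07). The intervals of the classes did not overlap in any library, and the collagen-rich cells, which also transcribe Tgfb2, were at 228, 148 and 94.3 CPM. Among Pax8-positive cells the Tgfb2 level was uneven. It was 470.1 and 793 CPM in clusters of 9 cells at P1 and 4 at P5, described below. In the other clusters of those libraries it was 25.9, 111 and 129.6 CPM. When every cell was thinned to 2000 UMIs before the gates, which left 7, 11 and 7 Pax8-positive cells, the log2 fold of Tgfb2 was 0.11 (adjusted p = 0.989). Of the 12 genes 4 could then be tested, and Rmst was the one still called, at 1.999 (adjusted p = 0.00932). Rmst (ENSMUSG00000112117, chr10:92071037-92165170), a long noncoding RNA, was at 172, 529 and 464 CPM against 45.9, 75.9 and 17.1 CPM (log2 fold 3.03 ± 0.32, adjusted p = 9.39e-06), with a UMI in 24, 42 and 18 of the Pax8-positive cells. Without the P5 library its log2 fold was 2.36 and still called. Without the library term it was 2.95 and not called (adjusted p = 0.0586). Collagen-rich cells were at 6.60, 6.64 and 3.05 CPM of Rmst, below both classes. Cp (ENSMUSG00000003617, chr3:19957054-20009145), the copper-binding ferroxidase ceruloplasmin, was at 13.2, 73.5 and 86.0 CPM against 2.16, 1.67 and 2.57 CPM (log2 fold 4.52 ± 0.47, adjusted p = 7.04e-06). Its UMIs came from 4, 13 and 8 cells, and the highest cell held 2, 8 and 7. Myl1 (ENSMUSG00000061816, chr1:66924295-66945404), a myosin light chain, was at 143, 61.6 and 99.8 CPM against 3.96, 2.20 and 7.97 CPM (log2 fold 4.37 ± 0.32, adjusted p = 3.93e-07), with UMIs in 12, 12 and 5 cells. At E18.5, 1 cell held 27 of its 54 UMIs.

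The other 8 genes of that group included an enzyme, a receptor and a junction protein. Aldh1a3 (ENSMUSG00000015134, chr7:66390890-66427517), a retinaldehyde dehydrogenase that makes retinoic acid, was at 55.6, 39.7 and 79.1 CPM in Pax8-positive cells against 5.58, 2.90 and 1.98 CPM (log2 fold 3.97 ± 0.40, adjusted p = 5.52e-06), in 11, 11 and 10 cells. Cldn11, a claudin of tight junctions, was at 66.2, 75.5 and 79.1 CPM against 6.66, 12.7 and 3.16 CPM (log2 fold 3.25 ± 0.33, adjusted p = 6.64e-06). In collagen-rich cells Aldh1a3 was at 1.29, 4.31 and 5.29 CPM and Cldn11 at 2.09, 5.58 and 5.73 CPM, below the Pax8-positive level in every library. Nrp1, a co-receptor of semaphorins and VEGF, was at 79.4, 67.6 and 89.4 CPM against 6.84, 6.15 and 4.94 CPM (log2 fold 3.58 ± 0.27, adjusted p = 4.06e-07). Tspan13, a tetraspanin, was at 87.4, 97.4 and 92.9 CPM against 14.1, 13.4 and 7.05 CPM (log2 fold 2.91 ± 0.25, adjusted p = 1.09e-06). Without the Wnt6 gate the log2 fold was 2.12 (adjusted p = 6.74e-04) for Nrp1 and 1.53 (adjusted p = 0.00537) for Tspan13. Cryab, a small heat shock protein, was at 68.9, 129 and 89.4 CPM against 9.89, 16.6 and 11.1 CPM (log2 fold 2.81 ± 0.22, adjusted p = 4.43e-07). Scg5, a chaperone of secretory granules, was at 13.2, 83.5 and 55.0 CPM against 0.720, 4.48 and 6.26 CPM (log2 fold 3.65 ± 0.39, adjusted p = 9.39e-06), from 3, 14 and 8 cells. Emid1 was at 76.8, 59.6 and 41.3 CPM against 5.13, 6.33 and 3.10 CPM (log2 fold 3.48 ± 0.32, adjusted p = 2.25e-06). Islr was at 58.3, 37.8 and 58.5 CPM against 5.31, 7.12 and 8.30 CPM (log2 fold 2.76 ± 0.32, adjusted p = 2.62e-05), but at 195, 132 and 209 CPM in collagen-rich cells. Among cells of 5000 to 15000 UMIs every gene of this group of 12 was still called. The log2 folds were then 3.79 for Cp, 3.33 for Myl1, 2.81 for Scg5, 2.41 for Tgfb2, 2.22 for Cldn11 and 1.97 for Cryab. That of Tspan13 was larger, at 3.04, and those of the others were smaller by less.

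**Figure D1:**
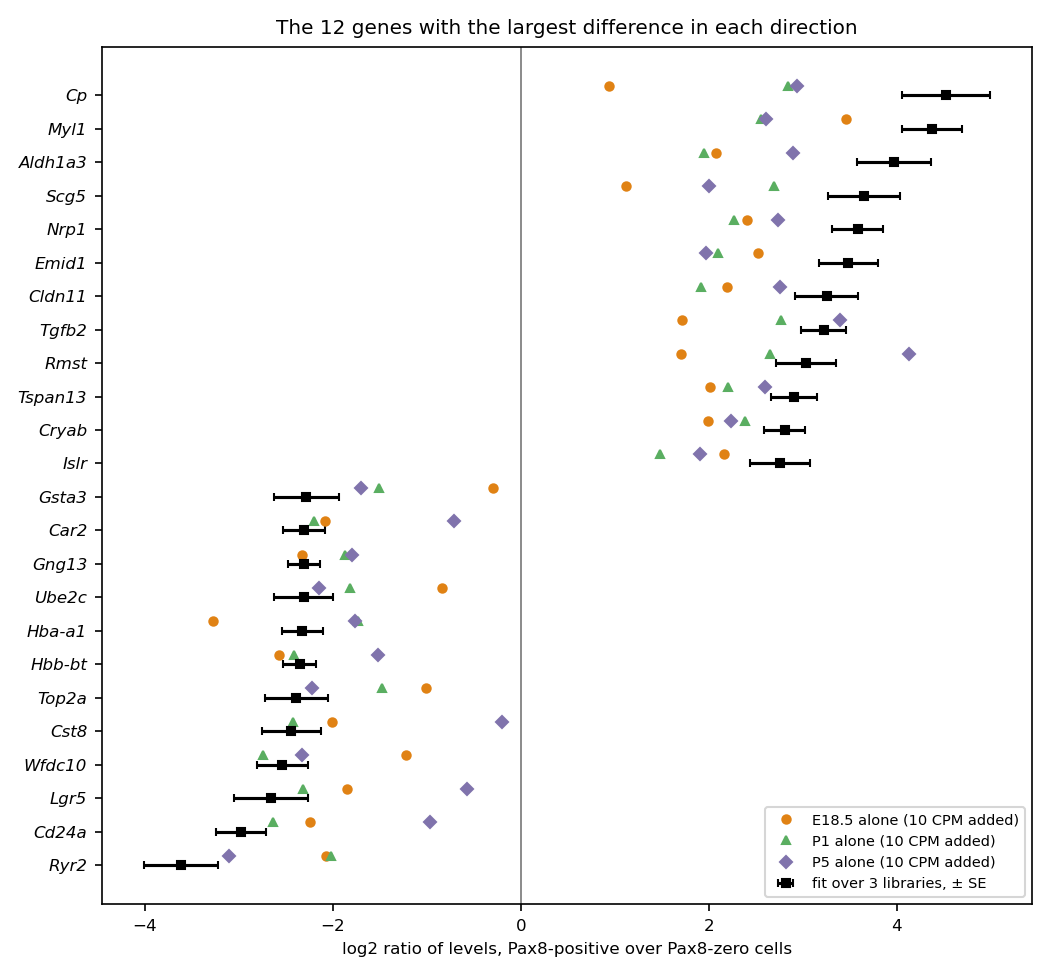
Log2 ratio of levels in Pax8-positive over Pax8-zero cells (x axis) for the 12 genes with the largest called difference in each direction (y axis). Black squares are the fit over 3 libraries with its SE and coloured points are the libraries alone with 10 CPM added to both levels, which shortens the ratios of low genes. All points of the upper 12 genes lie right of 0 and all of the lower 12 left of 0, as the choice of the genes requires, and the P5 point of Cst8 and the E18.5 point of Gsta3 lie nearest to it.

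Chosen in the same way, with a mean of at least 50 CPM in Pax8-zero cells, the 12 genes with the largest deficit included 3 markers of the cortical pathway. Gng13 (ENSMUSG00000025739, chr17:25717171-25719406), a G protein subunit, was at 177 (138 to 225), 75.5 (53.4 to 104) and 31.0 (14.2 to 58.8) CPM in Pax8-positive cells and 933, 303 and 132 CPM in Pax8-zero cells (log2 fold -2.31 ± 0.17, adjusted p = 3.93e-07). Lgr5 (ENSMUSG00000020140, chr10:115450311-115587780), a receptor of R-spondins, was at 18.54, 1.99 and 10.3 CPM against 92.7, 49.6 and 20.1 CPM (log2 fold -2.66 ± 0.39, adjusted p = 2.69e-04). Cst8, a cystatin, was at 23.8, 17.9 and 17.2 CPM against 126, 139 and 21.3 CPM (log2 fold -2.44 ± 0.31, adjusted p = 6.86e-05). In both classes Gng13 was lower at each later age, and the Lgr5 and Cst8 gaps were smallest at P5. Against Pax8-zero cells with no Gng13 or Lgr5 UMI the log2 fold of Cst8 was -0.83 (adjusted p = 0.175). Ryr2 (ENSMUSG00000021313, chr13:11553102-12106945), a calcium release channel, was at 7.94, 7.95 and 0 CPM against 65.6, 62.9 and 76.1 CPM (log2 fold -3.61 ± 0.40, adjusted p = 1.27e-05), with 3, 4 and 0 UMIs in Pax8-positive cells. Cd24a, a surface sialoglycoprotein, was at 15.9, 21.9 and 6.88 CPM against 112, 188 and 23.1 CPM (log2 fold -2.98 ± 0.27, adjusted p = 2.25e-06). The Cd24a log2 fold was -1.86 (adjusted p = 0.00130) without cells of over 1% haemoglobin UMIs and -1.51 (adjusted p = 0.0122) without cells with a Mki67 or Top2a UMI, both choices made after the data had been seen. Wfdc10 was at 39.7, 7.95 and 65.4 CPM against 106, 110.4 and 368 CPM (log2 fold -2.54 ± 0.27, adjusted p = 9.39e-06). Gsta3, a glutathione S-transferase, was at 2.65, 5.96 and 27.5 CPM against 5.58, 35.5 and 112 CPM (log2 fold -2.28 ± 0.34, adjusted p = 3.41e-04), a gap that was wider at P1 and P5 than at E18.5. The other 5 of the 12 belong to erythroid cells (Hbb-bt, Hba-a1 and Car2) or to cell division (Top2a and Ube2c) and are described with those lists.

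The pathway lists were taken from the study, which chose their genes on these cells, so their direction is not independent evidence. Of 8 cortical genes, 8 were tested, with 0 higher and 7 lower and a median log2 fold of -1.97, where the 7 called were Gng13, Lgr5, Apoc1, Gpc3, Cst8, Bace2 and Hmcn1 (all but Bace2 by DESeq2 too). Folr1 was not called, at 90.0, 37.8 and 65.4 CPM in Pax8-positive cells against 130.4, 61.9 and 59.0 CPM. Summed over the list the Pax8-positive level was 397, 231 and 175 CPM and the Pax8-zero level 1664, 822 and 356 CPM. Of 7 medullary genes, 7 were tested, with 0 higher and 2 lower and a median log2 fold of -0.19. Akr1cl, an aldo-keto reductase, was at 399.9, 256 and 681 CPM against 261, 594 and 2044 CPM (adjusted p = 0.0801), higher in Pax8-positive cells at E18.5 and lower at P1 and P5. Aard was lower at 127, 141 and 309.6 CPM against 243, 195 and 448 CPM (log2 fold -0.76 ± 0.15, adjusted p = 0.00448). Mgp, an inhibitor of calcification, was at 114, 97.4 and 358 CPM against 131, 226 and 454 CPM (log2 fold -0.72 ± 0.18, adjusted p = 0.0209), a call that DESeq2 did not make (adjusted p = 0.0936). With the comparison restricted to Pax8-zero cells that had no Gng13 and no Lgr5 UMI, a choice made after the data had been seen, 389 genes were higher and 273 lower, and 310 and 185 of these were among the calls of the whole comparison.

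Genes of the supporting lineage did not move together. Of 13 listed, 12 were tested, with 4 higher and 3 lower and a median log2 fold of 0.09, against 3.37% of all genes higher and 2.74% lower. Nr0b1 (ENSMUSG00000025056, chrX:86191764-86195947), the nuclear receptor Dax1, was at 87.4, 143 and 107 CPM in Pax8-positive and 14.8, 20.6 and 12.9 CPM in Pax8-zero cells (log2 fold 2.67 ± 0.21, adjusted p = 4.25e-07). Sox9 (ENSMUSG00000000567, chr11:112782224-112787760), the Sertoli factor of the testis that tubular epithelia also use, was at 119 (86.9 to 159), 85.5 (61.8 to 115) and 134 (95.4 to 183) CPM against 47.0, 31.2 and 32.1 CPM (log2 fold 1.48 ± 0.19, adjusted p = 6.75e-05). Both were above the comparison cells in each library, with intervals that did not overlap, and Dmrt1, a further testis factor, had no UMI in Pax8-positive cells. The Sox9 level differed among them, since in the clusters described below 12 cells at E18.5 were at 36.9 (10.1 to 94.6) CPM and 23 cells at P1 at 15.5 (3.20 to 45.4) CPM. Lhx9, a LIM homeobox gene, was lower at 53.0, 11.9 and 10.3 CPM against 162, 65.4 and 47.0 CPM (log2 fold -2.04 ± 0.25, adjusted p = 4.27e-05), as was Irx3 at 42.4, 95.4 and 10.3 CPM against 188, 233 and 110.3 CPM (log2 fold -1.95 ± 0.24, adjusted p = 5.41e-05). Kitl, the ligand of the oocyte receptor Kit, was at 238, 165 and 282 CPM against 531, 390.1 and 249 CPM (log2 fold -0.88 ± 0.20, adjusted p = 0.0121), lower at E18.5 and P1 and not at P5.

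No transcript of differentiating granulosa cells was called higher, though with library sizes alone 1 was. Of 13 granulosa genes, 12 were tested, with 0 higher and 3 lower and a median log2 fold of -1.16, against 3.37% of all genes higher and 2.74% lower. Fst (ENSMUSG00000021765, chr13:114452290-114458951), the activin-binding protein follistatin, was at 286 (235 to 345), 163 (129.6 to 202) and 65.4 (39.4 to 102) CPM in Pax8-positive cells and 762, 609 and 415 CPM in Pax8-zero cells (log2 fold -1.99 ± 0.19, adjusted p = 4.01e-06). Nr5a2, a nuclear receptor of granulosa cells, had 1, 1 and 1 UMIs in Pax8-positive cells, a level of 2.65, 1.99 and 3.44 CPM against 9.80, 18.3 and 72.6 CPM (adjusted p = 3.05e-04), and at P5 the ratio was 0.0474 (0.00120 to 0.265). Inha, the inhibin alpha subunit, was at 127, 109 and 134 CPM against 131, 248 and 655 CPM (log2 fold -1.32 ± 0.28, adjusted p = 0.00611), close at E18.5 and lower after birth. The Pax8-zero levels of Nr5a2 and Inha were higher at each later age while those of the Pax8-positive cells stayed within 109 to 134 CPM for Inha. Amh was at 0, 11.9 and 17.2 CPM against 4.59, 7.38 and 104 CPM (adjusted p = 0.0679). Amhr2, its receptor, was at 262, 435 and 358 CPM against 298, 315 and 389.6 CPM (adjusted p = 0.901). Of 8 genes of steroid synthesis, 7 were tested, with 0 higher and 1 lower and a median log2 fold of -0.60. Hsd3b1 was lower at 60.9, 45.7 and 34.4 CPM against 70.4, 86.9 and 329.8 CPM (log2 fold -1.54 ± 0.35, adjusted p = 0.0116), a call lost with DESeq2 (adjusted p = 0.521). Cyp11a1 and Cyp19a1 had no UMI in Pax8-positive cells.

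**Figure D2:**
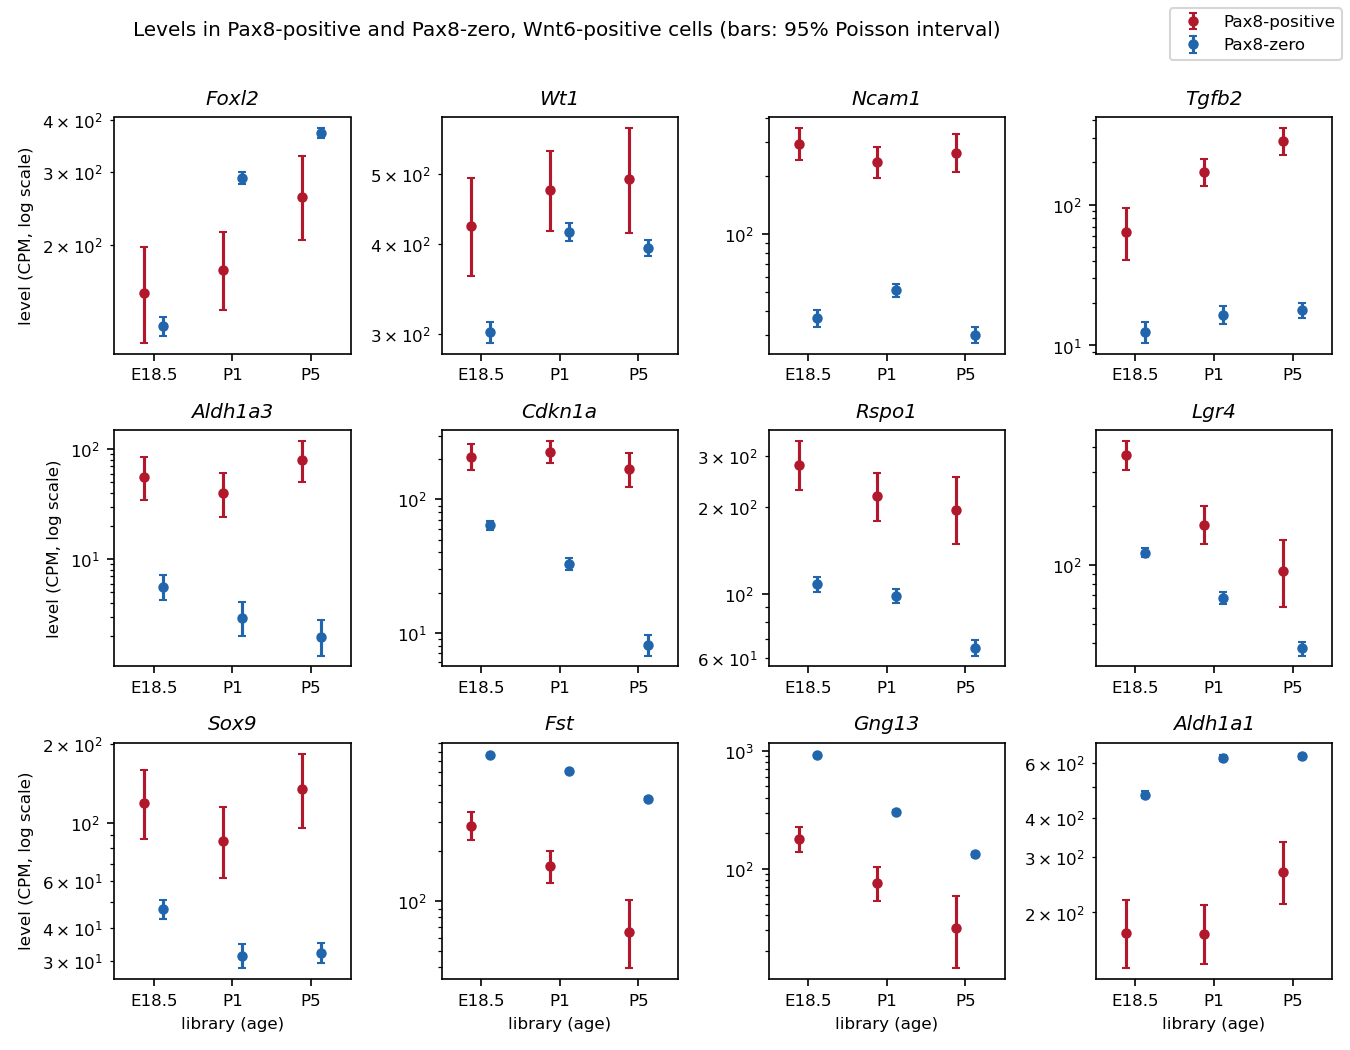
Levels (y axis, CPM on a log scale) of 12 genes in Pax8-positive (red) and Pax8-zero (blue), Wnt6-positive cells of the E18.5, P1 and P5 libraries (x axis), with 95% exact Poisson intervals as bars. Ncam1, Tgfb2, Aldh1a3, Cdkn1a, Rspo1, Lgr4 and Sox9 are higher and Fst, Gng13 and Aldh1a1 lower in Pax8-positive cells at each age, while the order of the classes for Foxl2 is not the same at E18.5 as at P1 and P5.

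Wnt signalling genes were among those raised. In this pathway R-spondins bind Lgr receptors and keep Wnt receptors at the surface, and Rspo1 and Wnt4 are needed for ovarian development. Of 19 genes listed, 14 were tested, with 6 higher and 1 lower and a median log2 fold of 0.66, where 3.37% of all genes tested were higher and 2.74% lower. Among cells of 5000 to 15000 UMIs 4 of the list were called higher and 1 lower. Of the ligands, Wnt4 was at 365, 189 and 92.9 CPM in Pax8-positive cells against 198, 72.2 and 54.3 CPM (log2 fold 0.93 ± 0.17, adjusted p = 0.00177). Wnt5a was at 13.2, 29.8 and 20.6 CPM against 3.33, 4.31 and 4.88 CPM (log2 fold 2.24 ± 0.45, adjusted p = 0.00432). Rspo1 (ENSMUSG00000028871, chr4:124986430-125009099) was at 281 (229.8 to 339.5), 219 (179.7 to 263) and 196 (149 to 254) CPM against 108, 98.3 and 65.0 CPM (log2 fold 1.24 ± 0.15, adjusted p = 3.30e-05). Of the receptors, Lgr4 (ENSMUSG00000050199, chr2:109917647-110014257) was at 365 (307 to 432), 161 (128 to 200.1) and 92.9 (61.2 to 135) CPM against 116, 67.7 and 37.4 CPM (log2 fold 1.32 ± 0.16, adjusted p = 4.61e-05), the opposite direction to Lgr5. Wnt4 and Lgr4 were lower at each later age in both classes, and the class intervals of Lgr4 did not overlap in any library. Nkd1, a feedback inhibitor and target of the pathway, was at 244, 209 and 165 CPM against 119, 106 and 87.2 CPM (log2 fold 0.86 ± 0.15, adjusted p = 0.00116). Dkk3 was at 15.9, 29.8 and 34.4 CPM against 10.4, 11.0 and 8.24 CPM (log2 fold 1.28 ± 0.37, adjusted p = 0.0458), a call that DESeq2 did not make (adjusted p = 0.108). Axin2, another target, was at 103, 87.4 and 86.0 CPM against 78.3, 66.8 and 40.4 CPM and did not pass the test (adjusted p = 0.180).

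The retinoid genes differed in direction. Retinoic acid is made by aldehyde dehydrogenases of the Aldh1a family. Of 12 genes listed, 6 were tested, with 3 higher and 1 lower and a median log2 fold of 0.63, against 3.37% of all genes higher and 2.74% lower. Aldh1a3 was raised, as given above, while Aldh1a1 was at 172, 171 and 268 CPM in Pax8-positive cells against 474, 619 and 627 CPM (log2 fold -1.65 ± 0.15, adjusted p = 2.85e-06). Aldh1a2 was at 76.8, 69.6 and 193 CPM against 67.0, 84.6 and 105 CPM and did not pass the test (adjusted p = 0.724). Stra6, the retinol importer, was at 26.5, 27.8 and 37.8 CPM against 6.21, 5.71 and 27.1 CPM (log2 fold 1.38 ± 0.39, adjusted p = 0.0436). Cyp26a1 and Cyp26b1, which break retinoic acid down, had no UMI in Pax8-positive cells.

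Of 15 genes of the BMP, activin and TGF-beta family, 14 were tested, with 3 higher and 2 lower and a median log2 fold of 0.43. Besides Tgfb2, the ligand Bmp7 was at 26.5, 33.8 and 24.1 CPM in Pax8-positive cells against 8.45, 10.9 and 6.59 CPM (log2 fold 1.58 ± 0.35, adjusted p = 0.00838). The receptor Bmpr1b was at 42.4, 63.6 and 37.8 CPM against 7.56, 6.68 and 10.9 CPM (log2 fold 2.46 ± 0.33, adjusted p = 1.27e-04). The ligand Bmp2 was lower, at 39.7, 1.99 and 10.3 CPM against 111, 44.5 and 20.5 CPM (log2 fold -2.01 ± 0.36, adjusted p = 0.00154), together with the inhibitor Fst. The ligands Bmp7 and Bmp2 thus differed in opposite directions. Id2, a BMP target, was at 342, 165 and 196 CPM against 488, 117 and 31.2 CPM (adjusted p = 0.409). Of 13 Notch pathway genes, 9 were tested, with 0 higher and 1 lower and a median log2 fold of -0.53, the called gene being the target Hey1, at 7.94, 5.96 and 6.88 CPM against 9.08, 12.8 and 67.0 CPM (log2 fold -1.95 ± 0.50, adjusted p = 0.0247), a call lost with DESeq2 (adjusted p = 0.244). Hes1, another target, was at 257, 1536 and 1717 CPM against 359, 876 and 859.7 CPM (adjusted p = 0.332).

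Adhesion and basement membrane genes moved in both directions. Of 20 listed, 18 were tested, with 6 higher and 4 lower and a median log2 fold of 0.11, against 3.37% of all genes higher and 2.74% lower. Ncam1 (ENSMUSG00000039542, chr9:49502136-49798925), the neural cell adhesion molecule, which nephric epithelium also uses, was at 294 (242 to 354), 236 (196 to 283) and 265 (209 to 331) CPM in Pax8-positive cells against 36.8, 51.2 and 30.1 CPM in Pax8-zero cells (log2 fold 2.64 ± 0.18, adjusted p = 1.89e-07). It was found in 24, 35 and 21 Pax8-positive cells. Collagen-rich cells carried it at 370.3, 261 and 202 CPM, near the Pax8-positive level. These levels differed from those of the Pax8-zero cells by more than the counting error in each library. Hspg2, the basement membrane proteoglycan perlecan, was at 55.6, 81.5 and 127 CPM against 17.4, 18.2 and 22.7 CPM (log2 fold 2.01 ± 0.22, adjusted p = 1.52e-05). Lama5, a laminin chain, was at 18.54, 29.8 and 27.5 CPM against 3.78, 6.85 and 2.77 CPM (log2 fold 2.38 ± 0.43, adjusted p = 0.00191). The tight junction gene Ocln was at 26.5, 21.9 and 24.1 CPM against 3.96, 3.60 and 2.77 CPM (log2 fold 2.67 ± 0.44, adjusted p = 8.44e-04) and was at 0.161, 0.495 and 0.311 CPM in collagen-rich cells. The other 2 higher genes were Cldn11 and Cdh6, a cadherin of nephron precursors. The collagen IV chain Col4a1 was lower at 29.1, 27.8 and 58.5 CPM against 83.1, 96.5 and 146 CPM (log2 fold -1.67 ± 0.21, adjusted p = 4.99e-05). Col4a2 was lower at 29.1, 15.9 and 34.4 CPM against 53.0, 78.0 and 124 CPM (log2 fold -1.81 ± 0.27, adjusted p = 2.54e-04). Nid1 and Cdh2 were lower as well, Nid1 not with DESeq2. The collagen IV chains and the laminin chain Lama5 thus lay on opposite sides of the comparison. Of the keratins, Krt18 was lower at 129.8, 109 and 89.4 CPM against 181, 229.9 and 131 CPM (log2 fold -0.84 ± 0.17, adjusted p = 0.00447). Krt8 was at 79.4, 75.5 and 162 CPM against 122, 160.3 and 123 CPM and did not pass the test (adjusted p = 0.152). Of 6 genes of ciliated cells, 3 were tested, with 1 higher and 0 lower and a median log2 fold of 0.82. Foxj1, the master regulator of motile cilia, was at 13.2, 19.9 and 31.0 CPM against 2.34, 1.05 and 0.198 CPM (log2 fold 4.19 ± 0.72, adjusted p = 0.00119), with 5, 10 and 9 UMIs, while Ccdc153 and Tmem212 had 1 and 0 UMIs in the 3 libraries together. Of 15 Hox genes, 9 were tested, with 1 higher and 0 lower and a median log2 fold of 0.02, the called gene being Hoxd9, at 55.6, 33.8 and 51.6 CPM against 16.2, 23.3 and 13.8 CPM (log2 fold 1.25 ± 0.30, adjusted p = 0.0156).

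**Figure D3:**
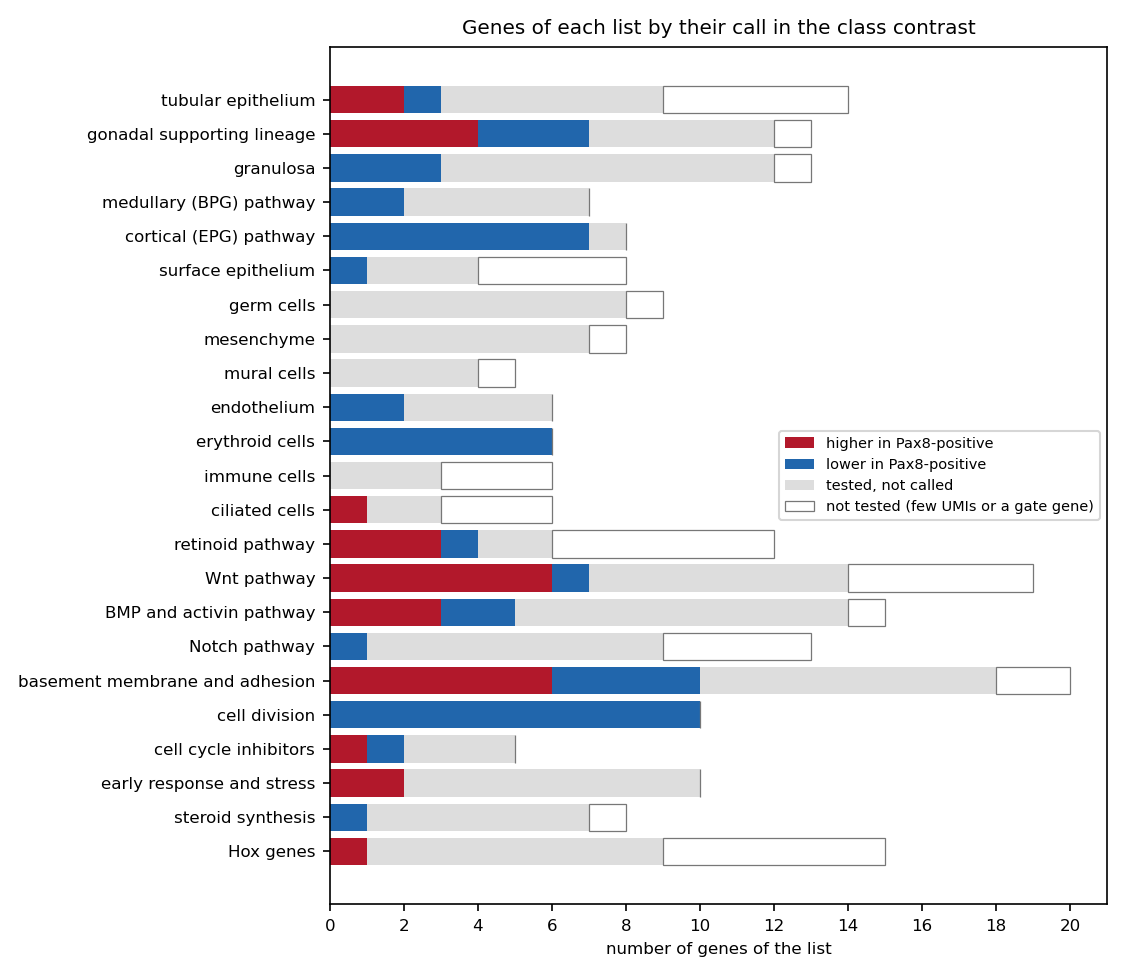
Number of genes (x axis) of each list (y axis) that were called higher (red) or lower (blue) in Pax8-positive cells, were tested and not called (grey), or were not tested (white). All 10 cell division and all 6 erythroid genes are blue, and the Wnt pathway and basement membrane and adhesion lists hold the most red genes, 6 each.

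Cell division genes were lower in the class sums, and DESeq2 called 9 of them. Of 10 listed, 10 were tested, with 0 higher and 10 lower and a median log2 fold of -2.55, against the 2.74% of all genes called lower. Top2a, which untangles DNA before mitosis, was at 5.30, 17.9 and 6.88 CPM in Pax8-positive cells against 20.9, 67.4 and 68.9 CPM (log2 fold -2.39 ± 0.34, adjusted p = 1.90e-04). Ube2c was at 13.2, 19.9 and 6.88 CPM against 31.5, 95.2 and 64.6 CPM (log2 fold -2.31 ± 0.31, adjusted p = 1.30e-04). Mki67 was at 2.65, 5.96 and 6.88 CPM against 11.51, 63.9 and 33.0 CPM (log2 fold -3.01 ± 0.43, adjusted p = 2.05e-04). Among cells of 5000 to 15000 UMIs 4 of the 10 were called, and the log2 fold of Top2a was -1.03 (adjusted p = 0.217). Without cells that held a Mki67 or Top2a UMI 0 of the other 8 were called, and that of Ube2c was -0.13 (adjusted p = 0.930). The erythroid markers described below moved with these genes. Without cells of over 1% haemoglobin UMIs 10 of the 10 were called, with a log2 fold of -1.53 (adjusted p = 0.0149) for Ube2c and -1.85 (adjusted p = 0.00567) for Top2a. Conversely, without cells with a Mki67 or Top2a UMI 3 of the 6 erythroid genes were called, with a log2 fold of -1.37 (adjusted p = 5.78e-04) for Hbb-bt. The share of cells with a Mki67 or Top2a UMI was 8.57, 13.7 and 15.4% of Pax8-positive cells (3, 7 and 4 cells) and 8.49, 16.3 and 13.3% of Pax8-zero cells. These shares were close at E18.5, lower in Pax8-positive cells at P1 and higher at P5, with exact 95% intervals of 1.80 to 23.1, 5.70 to 26.3 and 4.36 to 34.9% in Pax8-positive cells that held the Pax8-zero share each time. Thinned to 2000 UMIs, the shares were 2.86, 0 and 3.85% and 3.11, 7.39 and 6.64%, which rest on 0 or 1 Pax8-positive cells. Of 5 cell cycle inhibitors, 5 were tested, with 1 higher and 1 lower and a median log2 fold of 0.04. Cdkn1a (ENSMUSG00000023067, chr17:29090976-29100727), which encodes p21, was at 209 (166 to 261), 229 (189 to 274) and 169 (125 to 223) CPM in Pax8-positive cells against 64.0, 32.7 and 8.11 CPM (log2 fold 2.69 ± 0.30, adjusted p = 1.52e-05). Cdkn1b, which encodes p27, was at 106, 89.4 and 92.9 CPM against 189.7, 204 and 197 CPM (log2 fold -1.16 ± 0.16, adjusted p = 1.92e-04). The p21 transcript stayed within overlapping intervals over the ages in Pax8-positive cells, while it was lower at each later age in Pax8-zero cells. Of 10 genes of early response and heat stress, which dissociation can induce, 10 were tested, with 2 higher and 0 lower and a median log2 fold of 0.41. Egr1 was at 919, 777 and 970.1 CPM against 653, 469.8 and 369 CPM (log2 fold 0.74 ± 0.15, adjusted p = 0.00502). Junb was at 720.3, 771 and 1132 CPM against 476, 441 and 325 CPM (log2 fold 0.94 ± 0.17, adjusted p = 0.00222). With library sizes alone, and likewise among cells of 5000 to 15000 UMIs, 5 of the list were higher. The summed level of the list was 8839.8, 11683 and 12619 CPM in Pax8-positive and 7342, 9277 and 6641 CPM in Pax8-zero cells. The part of this list in the other differences was not tested.

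Markers of other cell types were measured in both classes. All 6 erythroid genes were lower in Pax8-positive cells, with a summed level of 818, 7732 and 2006 CPM against 5473, 22255 and 6249 CPM. Hbb-bt was at 117, 539 and 227 CPM against 743, 2900.2 and 668 CPM (log2 fold -2.35 ± 0.17, adjusted p = 3.93e-07). Hba-a1 was at 129.8, 1618 and 409 CPM against 1345, 5386 and 1418 CPM (log2 fold -2.32 ± 0.22, adjusted p = 3.34e-06). Car2 was at 39.7, 63.6 and 17.2 CPM against 201, 328 and 34.7 CPM (log2 fold -2.30 ± 0.22, adjusted p = 3.34e-06). The 4 haemoglobin genes made up a median of 0.0806, 0.330 and 0.209% of the UMIs of a Pax8-positive cell and 0.0822, 0.352 and 0.195% of those of a Pax8-zero cell, so the typical cell of each class held about the same amount. Over 1% haemoglobin was found in 22, 82 and 21 Pax8-zero cells, up to 51.8, 65.6 and 55.7%, and in 0, 1 and 0 Pax8-positive cells, of which the P1 cell reached 22.3%. Without such cells, a choice that itself uses haemoglobin, 0 of the 6 erythroid genes were called by edgeR, and the log2 fold of Car2 was -1.03 (adjusted p = 0.0701). It was -0.46 (adjusted p = 0.413) without cells with a Mki67 or Top2a UMI. Over all genes, without the haemoglobin-rich cells, 412 genes were higher and 295 lower.

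Of 6 immune genes, 3 were tested, with 0 higher and 0 lower and a median log2 fold of -0.69. Ptprc, Cx3cr1 and C1qa had no UMI in Pax8-positive cells. Lyz2, the most abundant, was at 0, 240.5 and 3.44 CPM against 11.0, 165 and 26.4 CPM, and 1 Pax8-positive cell at P1 held 104 of its 121 UMIs. Of 6 endothelial genes, 6 were tested, with 0 higher and 2 lower and a median log2 fold of -2.41. Cdh5 and Emcn had no UMI in Pax8-positive cells, and the called genes were Cldn5 and Cdh5, neither of them called by DESeq2. The summed endothelial level was 21.2, 29.8 and 48.2 CPM against 65.8, 58.7 and 27.2 CPM. It was lower in Pax8-positive cells at E18.5 and P1 and higher at P5, with Kdr the most abundant gene. At an unadjusted p under 0.05, 1 endothelial gene was higher and 3 were lower. Of 8 mesenchymal genes, 7 were tested, with 0 higher and 0 lower and a median log2 fold of 0.37, and their summed level was 376, 302 and 334 CPM against 298, 247 and 249.8 CPM. Col3a1, the most abundant of them, was at 286, 151 and 169 CPM in Pax8-positive cells and 2236, 1611 and 1978 CPM in collagen-rich cells. Of 5 mural genes, 4 were tested, with 0 higher and 0 lower and a median log2 fold of -0.65, and of 9 germ cell genes, 8 were tested, with 0 higher and 0 lower and a median log2 fold of -0.42. The germ cell sums were 66.2, 53.7 and 37.8 CPM and 63.4, 59.7 and 45.2 CPM, with Sycp3 the most abundant. In the germ cell, mesenchymal and mural lists 0 genes had an unadjusted p under 0.05 and 0 were called by DESeq2, and in the immune list 1 had such a p and 0 were called by DESeq2. Of 8 genes of the surface epithelium, 4 were tested, with 0 higher and 1 lower and a median log2 fold of -0.79, the called gene being Aldh1a1. Upk1b was at 0, 5.96 and 0 CPM in Pax8-positive cells and 145, 139 and 178 CPM in Upk3b-rich cells. Krt19 was at 23.8, 21.9 and 44.7 CPM in the former and 859, 875 and 1231 CPM in the latter. Scrublet called 79, 164 and 111 doublets in the libraries, of which 1, 1 and 0 were Pax8-positive cells.

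The Pax8-positive cells were not uniform. Grouped by their Pax8 count, which is part of the selection, cells with 2 or more UMIs had Tgfb2 levels of 49.8, 282 and 452 CPM, cells with exactly 1 UMI 71.7, 59.6 and 41.6 CPM and Pax8-zero cells 12.4, 16.52 and 17.7 CPM. The corresponding Rmst levels were 292, 624 and 557, then 101, 433 and 333, then 45.9, 75.9 and 17.1 CPM. Cp was at 7.12, 111 and 141 CPM with 2 or more Pax8 UMIs and 16.9, 35.8 and 8.32 CPM with 1. For Tgfb2 and Cp the cells with more Pax8 stood apart at P1 and P5 and not at E18.5. Fst, whose P5 value of 0 rests on 13 cells, was at 192, 147 and 0 CPM with 2 or more Pax8 UMIs, 342, 179 and 158 CPM with 1 and 762, 609 and 415 CPM with none. The values were lower with each step, though the intervals of the 1-UMI group and the group with more overlapped at E18.5 and P1 and were apart at P5. Ncam1 was above its Pax8-zero level in both groups, at 256, 298 and 323 CPM with 2 or more Pax8 UMIs and 316, 175 and 183 CPM with 1. Foxl2 was at 99.7, 179 and 205 CPM in the former group and 186, 171 and 341 CPM in the latter, with overlapping intervals in each library.

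**Figure D4:**
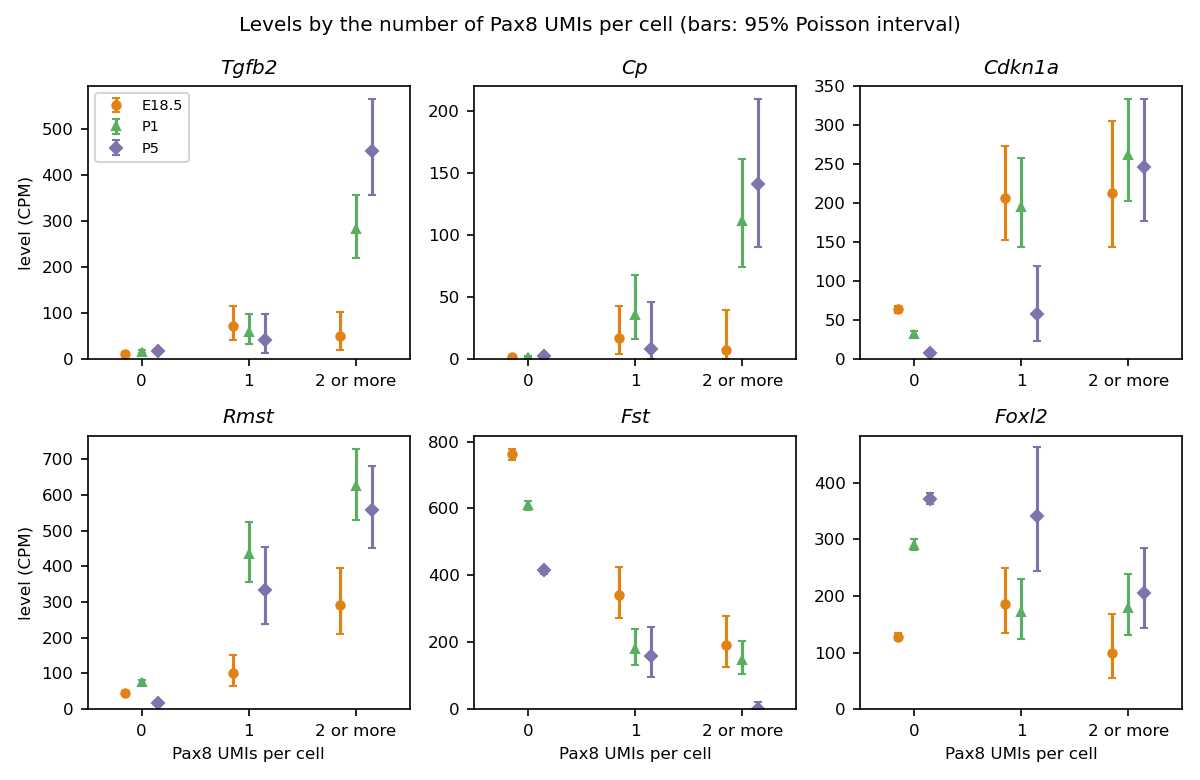
Levels (y axis, CPM) of 6 genes in Wnt6-positive cells with 0, 1 or at least 2 Pax8 UMIs (x axis) at E18.5, P1 and P5, with 95% exact Poisson intervals as bars. Tgfb2 and Cp are highest with at least 2 Pax8 UMIs at P1 and P5, the point values of Rmst are higher and those of Fst lower with each step in every library, while Foxl2 is lower with each step at P5 and not at E18.5 or P1.

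Clustering of the Pax8-positive cells of each library, which used all their variable genes and gives no test, split E18.5 into 23 and 12 cells, P1 into 23, 19 and 9 and P5 into 22 and 4. The clusters of 9 cells at P1 and 4 at P5 shared 1500015O10Rik, Ier3 and Dbi among their 10 leading genes. Their medians were 13117 and 17396 UMIs, above those of the other clusters of their libraries, 8055, 8235 and 9445. In these clusters Tgfb2 was at 470.1 and 793 CPM, Foxl2 at 84.8 and 14.96 CPM and Cdh16 at 77.1 and 89.8 CPM. The other clusters had Foxl2 levels of 150.04 and 266 CPM at P1 and 335 CPM at P5. Their Tgfb2 levels were 25.9, 111 and 129.6 CPM and their Cdh16 levels 0, 16.7 and 13.4 CPM. Ncam1 was lowest in the 23-cell cluster at P1, at 67.3 (35.8 to 115) CPM, an interval that held the Pax8-zero level of that library, and above the Pax8-zero level in the other clusters. The clusters were left unnamed. At P1, haemoglobin genes were among the leading genes of the 23-cell cluster, and 1 Pax8-positive cell of this library held 1384 of 2224 Hbb-bs UMIs. The 10 leading genes of the 19-cell cluster were S100a9, Ngp, BC100530, S100a8, Stfa1, Camp, Gm5483, Lyz2, Stfa3 and Ltf. Its 109 Lyz2 UMIs came mostly from the 1 cell given with the immune genes. How many cells carried the other leading genes was not examined. Gng13 and Irx3 were also among the leading genes of the 23-cell cluster, where Gng13 was at 171 (118 to 239.8) CPM against 16.7 and 15.4 CPM in the others at P1. Tgfb2 was there at 25.9 (8.40 to 60.4) CPM, an interval that held the Pax8-zero level. Over all Pax8-positive cells, cells without a Foxl2 UMI (12, 15 and 6 cells) had Aldh1a3 at 137, 67.5 and 149.7 CPM and cells with one 19.2, 28.2 and 58.1 CPM, with intervals that were apart at E18.5 and overlapped at P1 and P5. The Pax8 levels of the same groups were 137, 216 and 209.6 and 127, 208 and 183 CPM.

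The ages were compared without a test. From E18.5 to P5, 63 of 1873 genes that reached 100 CPM at either age were at least 2-fold higher in Pax8-positive cells, with 10 CPM added to both levels and P1 between them (3.36%), and 67 were at least 2-fold lower (3.58%). In the Pax8-zero cells of the same libraries 58 of the former were also higher at P5 and 65 of the latter lower, where of all 1873 genes 48.7% were higher and 51.3% lower in those cells. The median log2 ratios of these genes were 1.22 and -1.27 in Pax8-positive cells and 0.79 and -0.999 in Pax8-zero cells. The genes were chosen for their change in Pax8-positive cells, so the sizes in the classes are not compared. Cebpd, a transcription factor of the acute response, was at 71.5, 229 and 416 CPM in Pax8-positive cells and 34.8, 55.0 and 34.9 CPM in Pax8-zero cells. Its UMIs came from 9, 24 and 11 Pax8-positive cells, and 1 cell at P5 held 41 of 121. Bhlhe40, a circadian and stress-responsive repressor, was at 26.5, 101 and 162 CPM against 14.9, 17.0 and 16.8 CPM. Dbi, an acyl-CoA-binding protein, was at 140.4, 282 and 626 CPM against 163, 146 and 203 CPM. Single cells held 31 of its 142 UMIs at P1 and 47 of 182 at P5, and Cebpd and Dbi were among the leading genes of the 4-cell cluster at P5. For Cebpd, Bhlhe40 and Dbi the P5 level of the comparison cells was near their E18.5 level. Given how the genes were chosen, no difference between the classes is read from this. Hes1, the Notch target, was at 257, 1536 and 1717 CPM against 359, 876 and 859.7 CPM. Socs3, an inhibitor of cytokine signalling, was at 13.2, 119 and 155 CPM against 10.4, 35.1 and 45.8 CPM. Gadd45g, a stress-response gene, was at 98.0, 397 and 492 CPM against 82.1, 126 and 184 CPM. Cxcl1, a chemokine, had 2, 8 and 41 UMIs in Pax8-positive cells, 19 of them in 1 cell at P5. AY036118 was at 18.54, 115 and 151 CPM.

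Of the 8 genes with the largest fall, Fst and Gng13 have been given above, and the P5 value of Fst came from 4 cells. Nrn1, the neuritin gene, was at 188, 33.8 and 27.5 CPM in Pax8-positive cells and 315, 48.0 and 112 CPM in Pax8-zero cells. Peg10, an imprinted gene of retroviral origin, was at 225, 69.6 and 37.8 CPM against 97.0, 52.1 and 6.79 CPM. Hsd17b11, a hydroxysteroid dehydrogenase, was at 212, 95.4 and 41.3 CPM against 49.5, 36.6 and 20.9 CPM. These 2 were above the comparison cells at each age. Elovl5, a fatty acid elongase, was at 140.4, 73.5 and 31.0 CPM against 83.9, 42.7 and 27.6 CPM. Ccdc85b was at 103, 31.8 and 20.6 CPM against 87.1, 13.2 and 12.9 CPM. Tspan31 was at 109, 29.8 and 13.8 CPM against 88.3, 38.7 and 56.2 CPM. Elovl5 and Ccdc85b were also the higher of the classes at each age.

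**Figure D5:**
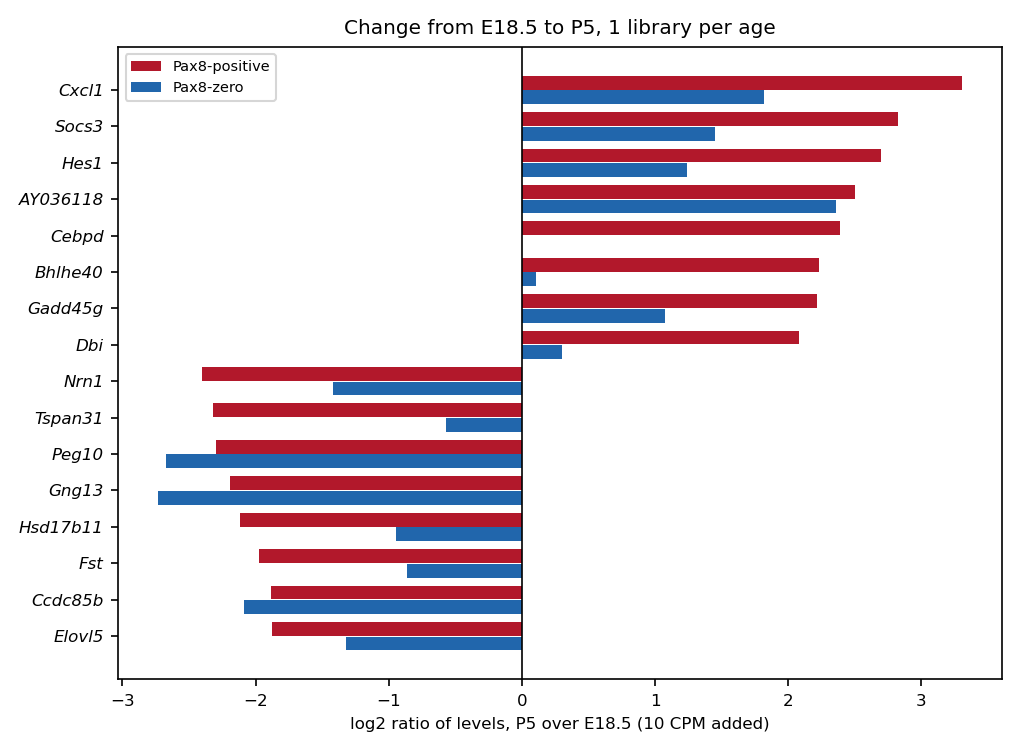
Log2 ratio of the P5 over the E18.5 level with 10 CPM added (x axis) in Pax8-positive (red) and Pax8-zero (blue) cells for the 8 genes with the largest change up and down in Pax8-positive cells (y axis), 1 library per age and no error shown. Cebpd, Bhlhe40 and Dbi have long red and short blue bars, and the falling genes have both bars left of 0. The genes were chosen by their red bars, so the lengths are not compared between the classes.

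The same gates in the E12.5, E14.5 and E16.5 libraries, which the selection did not use, gave 237, 237 and 276 Pax8-positive cells. Of the 420 genes higher at the later ages 81.0, 91.4 and 95.2% were also higher in these libraries, against 56.8, 54.1 and 49.0% of all genes tested, and of the 341 lower genes 75.7, 87.7 and 96.2% were lower against 43.0, 45.7 and 51.0%. All 12 named higher genes and 5 of the 12 named lower genes kept their direction in each of the 3 earlier libraries, as did 309 of all 420 higher and 221 of all 341 lower genes. Aldh1a3, for example, was at 41.4, 34.8 and 48.7 CPM against 8.88, 5.72 and 5.03 CPM, and Cp at 2.40, 5.80 and 14.8 CPM against 1.18, 0.972 and 1.58 CPM, well under its levels after birth.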

How the data were processed

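Mouse gonads were profiled by 10x Genomics single-cell RNA sequencing. The authors processed reads with Cell Ranger 3.1.0 on mm10 (Seurat was used for their own clustering), and deposited UMI counts per gene and called cell, not normalized. Over the classes described above, counts were summed per library and tested with edgeR 4.0.16 (quasi-likelihood, library as a term, TMM factors, filterByExpr, R 4.3.3), after a check on simulated data. Gate genes were left out of the calls. DESeq2 1.42.0 was an alternative. The 3 libraries are of different ages and no further replicates exist among the samples used, so the p-values measure the spread of the class difference over ages. Shares have exact binomial intervals. Doublets were kept. Scrublet, in scanpy 1.11.5, was an alternative. Clusters used 10 principal components and Leiden at resolution 0.6. Collagen-rich cells had over 5 UMIs of Col1a1 plus Col1a2 and Upk3b-rich cells over 1 of Upk3b, with at least 1000 genes and at most 1 germ cell UMI (Upk3b-rich cells also at most 5 collagen UMIs). Positions are from GENCODE on GRCm38, 1-based, which matched 31011 of 31053 genes. Named genes were the 12 largest called log2 folds in each direction with the same sign in each library and a mean of at least 50 CPM over the libraries in the higher class, without Gm and Rik models, the 8 largest changes with age each way, and examples from the lists. A few listed genes are counted but not reported here by name. Members and lists were chosen with earlier results of these data known.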

Additional observations from a re-analysis of the deposited data

Results flagged for a closer look

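The ratio of the Pax8-positive to the Pax8-zero level lay on opposite sides of 1 at different ages for 9 listed genes, each with a 95% interval that left out 1. With 1 library per age the differences between ages were not tested, and the intervals cover counting error only. For Akr1cl the ratio at E18.5 was 1.53 (1.29 to 1.81), that at P1 was 0.432 (0.360 to 0.514) and that at P5 was 0.333 (0.288 to 0.383). Akr1c14, a related reductase, had 1.97 (1.56 to 2.46) at E18.5 and 0.663 (0.490 to 0.879) at P1. Col18a1 had 1.52 (1.12 to 2.02) at E18.5 and 0.680 (0.529 to 0.861) at P5. The opposite order was found for Hes1, whose E18.5 ratio was 0.716 (0.579 to 0.876), its P1 ratio 1.75 (1.63 to 1.89) and its P5 ratio 1.997 (1.82 to 2.18). Id2 had 0.700 (0.584 to 0.834), then 1.41 (1.11 to 1.75), then 6.29 (4.69 to 8.29), and Cdkn1c, which encodes the cell cycle inhibitor p57, 0.854 (0.756 to 0.961), then 1.28 (1.11 to 1.46), then 4.49 (3.37 to 5.88). Of the rest, Krt7 had 0.127 (0.00321 to 0.717) at E18.5 and 2.40 (1.02 to 4.83) at P5, and Acta2 2.39 (1.06 to 4.70) at E18.5 and 0.194 (0.0235 to 0.706) at P5. Lyz2 had 0 (0 to 0.904) at E18.5, 1.46 (1.20 to 1.75) at P1, where 1 cell held most of its UMIs, and 0.130 (0.00329 to 0.729) at P5.

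The E11.5 library, which entered no comparison, held 35 cells that met all gates among 7972 cells with at least 1000 genes, 0.439% (0.306 to 0.610%, exact binomial interval).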

How the results depend on the processing

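The number of Pax8-positive cells at E18.5, P1 and P5 was 11, 22 and 13 with at least 2 Pax8 UMIs, 47, 89 and 52 without the Wnt6 gate and 7, 11 and 7 after thinning to 2000 UMIs. Thinning left 3 higher and 90 lower genes of 7496 tested (median log2 fold of all genes -0.74). Of the earlier calls that could then be tested, 147 of 239 higher and 242 of 246 lower genes kept their direction. The calls were 620 higher and 731 lower without the Wnt6 gate, 489 higher and 701 lower without a filter on low counts, 78 higher and 11 lower without the library term and 354 higher and 153 lower with DESeq2. Leaving out 1 library gave 298 to 453 higher and 269 to 415 lower genes, fewest without P1. The counts moved by less than 1.5 times under the other alternatives. Of the named genes' differences 413 kept direction and significance over the alternatives, 26 kept direction only, 13 of these without the library term and 8 with thinning. Thinning left 14 of the 24 named genes to test, of which 4 stayed called, and Cryab turned to -0.44 ± 1.82 and Ube2c to 0.54 ± 1.20 (log2 fold, edgeR adjusted p = 0.964 and 0.923). Genes that changed with age were 17 up and 21 down at 3-fold, 146 up and 157 down at 50 CPM and 133 up and 101 down with at least 2 Pax8 UMIs. The cause of these moves was not tested. The library term pairs the classes within each library, and the fit without it is the unpaired one. The labels give no replicate numbers to pair beyond that. Few Pax8 UMIs per cell limit how completely the class was found.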

Other observations

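Pax8 UMIs were also found in cells that passed the gates with no Wnt6 UMI, 12, 38 and 26 cells at E18.5, P1 and P5. Their Pax8 levels were 144, 141 and 235 CPM, and those of Ncam1 211, 141 and 391 CPM, Aldh1a3 48.0, 51.6 and 106 CPM, Tgfb2 76.8, 135 and 446 CPM and Sox9 182, 74.0 and 137 CPM. Foxl2 was at 48.0, 58.3 and 168 CPM and Wt1 at 202, 199.6 and 414 CPM. Epithelial transcripts were present after birth, with Cldn3 at 0, 327 and 113 CPM, Epcam at 0, 152 and 89.9 CPM, Sox17 at 0, 188 and 102 CPM and Krt19 at 9.60, 269 and 93.8 CPM. Few of the cells carried them, since Cldn3 was found in 0, 7 and 7 of these cells, Epcam in 0, 9 and 7, Sox17 in 0, 6 and 5, Krt19 in 1, 5 and 4 and Cdh16 in 0, 7 and 8. Lhx1 had no UMI, and Pax2 was found in 0, 2 and 1 cells. Lyz2, an immune transcript, was at 1065, 1359 and 11.7 CPM, with a UMI in 2, 15 and 3 cells.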
